A study of Mus musculus with 5 samples.

Results

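The natriuretic peptide system was described here through 7 genes, matched by symbol in a table of 12446 genes from mouse heart muscle cells: the ligand genes Nppa and Nppb, the processing enzymes Corin and Furin, and the receptors Npr1, Npr2 and Npr3. All 7 were listed and all 7 passed the filter on low values. The 3 OSKM-CMs libraries came from C57BL/6 male mice that received a mixture of vectors at 8 weeks by injection into the thoracic cavity. These were AAV-cTnT-Oct4-His6 for Oct4 with a histidine tag, AAV-cTnT-Sox2-Flag for Sox2 with a Flag tag, AAV-cTnT-Klf4-HA for Klf4 with an HA tag and, for Myc with a V5 tag, AAV-cTnT-Myc-V5. The 2 Control-CMs libraries came from such mice that received AAV-cTnT-BFP alone, the gene of a blue fluorescent protein, at 4 times the dose of each single factor vector, so that the total vector dose was the same. The series design names the virus as AAV9, and all vectors carried the promoter of cardiac troponin T (cTnT), which is active in cardiomyocytes. Age is given as 12 to 14 weeks for both groups. Cardiomyocytes were isolated from the hearts before RNA extraction, and the labels do not say that each library was a separate mouse, so the p-values below reflect the spread among these libraries alone, which may be technical. They do not say which chambers of the heart were taken either.

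Natriuretic peptides are hormones that cardiomyocytes store and release. Nppa encodes atrial natriuretic peptide (ANP), made mainly in the atria of the adult heart and in the ventricles before birth and under load, and Nppb encodes B-type natriuretic peptide (BNP), which ventricular cells release when stretched. Both are made as longer precursors: corin, a protease on the cardiomyocyte surface, cuts pro-ANP, and furin, a protease of the secretory pathway, cuts pro-BNP. ANP and BNP act through NPR-A (Npr1), C-type natriuretic peptide acts through NPR-B (Npr2), and both receptors make cyclic GMP (cGMP) inside the cell. NPR-C (Npr3) has no cyclase domain and takes the peptides up for degradation, which gave it the name clearance receptor.

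Levels are given as scaled RPKM: reads divided by gene length and by library size, rescaled between libraries with TMM factors (a trimmed mean of log ratios). Differences are log2 fold changes of scaled RPKM plus 1, OSKM-CMs over Control-CMs, from limma, with p adjusted by the Benjamini-Hochberg method over all 10901 genes tested and a threshold of 0.05. The added 1 makes log2 fold changes of genes with low levels smaller than their ratios. Reads over the listed genes totalled 2691796 to 2780751 in the OSKM-CMs libraries and 3519628 and 3861805 in the controls, and 0 reads would allow up to 3 reads, or 0.777 to 1.11 CPM (reads scaled to library size) by library. All 4 delivered factors were read in the libraries that should hold them: Pou5f1 (the gene of Oct4) had 262 to 344 reads and Sox2 254 to 391 in OSKM-CMs and both had 0 in the 2 controls, Klf4 had 227 to 364 reads against 34 and 50, and Myc had 179 to 294 against 4 and 5. The 11 cardiomyocyte markers were detected in all 5 libraries. Their summed levels were 20858 to 23858 scaled RPKM in OSKM-CMs and 32909 and 35744 in controls. Of these markers, 8 fell, 1 rose and 2 did not pass. The shares called over all genes tested were 15.7% higher and 14.4% lower. In bulk RNA, fewer cells of a type and less RNA per cell cannot be told apart.

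Of the 7 genes, Nppa, Nppb and Npr3 were higher in OSKM-CMs, Corin was lower, and Furin, Npr1 and Npr2 did not pass. Among all genes tested 15.7% were called higher and 14.4% lower, or 30.1% in either direction. The group ranges did not overlap for 6 of the 7 genes (Nppa, Nppb and Npr3 higher, Corin, Furin and Npr2 lower), and they did not overlap for 57.9% of all genes tested, so the lack of overlap does not set these genes apart. Both ligand genes, 1 of the 2 processing enzymes and 1 of the 3 receptors were thus called, and the median log2 fold change of the 7 genes was -0.33, against 0.02 for all genes tested. The plot of levels shows each gene in each library.

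**Figure D1:**
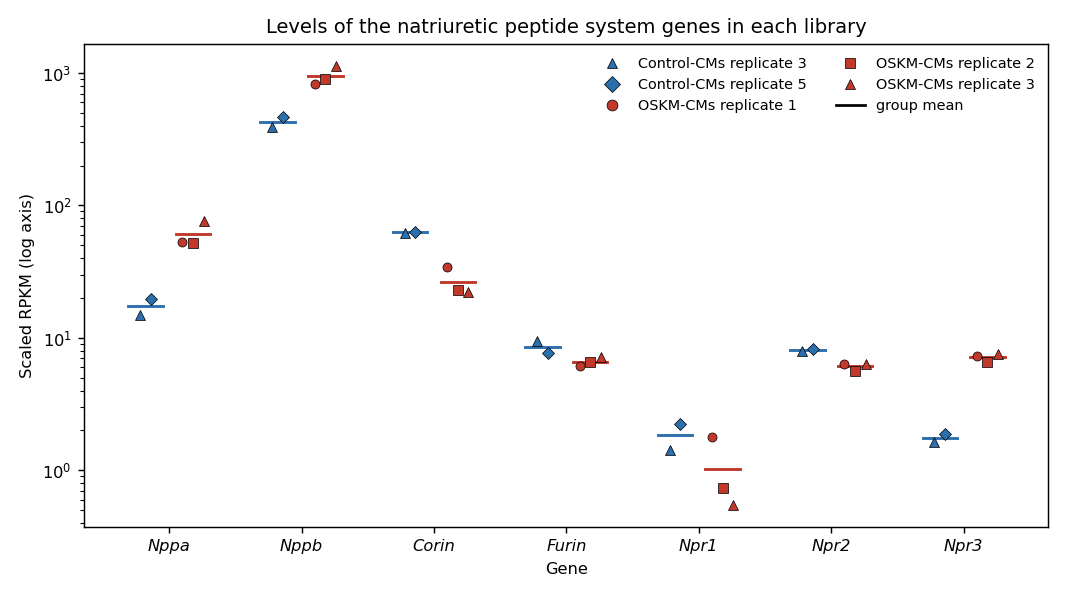
Scaled RPKM (y, log axis) of the 7 genes (x) in the 2 Control-CMs (blue) and 3 OSKM-CMs (red) libraries, 1 point a library with its shape for the replicate number and a line at each group mean. Nppa and Corin change places between the groups, with means of 17.2 and 62.6 in controls and 60.5 and 26.4 in OSKM-CMs, while Npr3 and Npr2 stood at 1.76 and 8.13 in controls and at 7.16 and 6.11 in OSKM-CMs, an order between these 2 that depends on the gene lengths used.

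Both ligand genes rose. Nppa (ENSMUSG00000041616.9) stood at 53.1, 52.4 and 76.1 scaled RPKM in OSKM-CMs replicates 1, 2 and 3 and at 14.9 and 19.6 in Control-CMs replicates 3 and 5. The lowest OSKM-CMs library was well above the highest control, and replicate 3 was the highest of its group. The means were 60.5 ± 13.4 (SD, n = 3) and 17.2 ± 3.30 (SD, n = 2), which is 3.51-fold, and the log2 fold change was 1.74 with a standard error of 0.20 and a 95% interval of 1.28 to 2.21 (limma adjusted p = 0.000972). These levels rest on 141, 141 and 201 reads in OSKM-CMs and on 40 and 52 in controls. The authors' deposited table gives Nppa a log2 fold change of 1.79 with an FDR of 2.86e-09.

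In the GENCODE M21 annotation, which was not the authors' own, 61.5% of the Nppa exon bases (532 of 865) are also covered by the antisense gene Gm13054, which is not among the listed genes. Whether the counting used strand is not given in the sources used here, so reads of the 2 genes cannot be told apart over that stretch. No gene overlapped the exons of Nppb. For the other 5 members the antisense share ranged from 1.29% (Furin) to 11.7% (Npr1).

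Nppb (ENSMUSG00000029019.8) was the most abundant of the 7 in every library, at 833, 906 and 1131 scaled RPKM in OSKM-CMs and 393 and 462 in controls. The groups did not overlap, and replicate 3 was again the highest OSKM-CMs library. The means were 956 ± 155 (SD, n = 3) and 427 ± 49.0 (SD, n = 2), a 2.24-fold difference with a log2 fold change of 1.15, a standard error of 0.16 and a 95% interval of 0.79 to 1.51 (limma adjusted p = 0.00173). Ranked among all 12446 genes by level per length, Nppb took places 41 to 60 in OSKM-CMs libraries and places 133 and 144 in controls. Nppa took places 608 to 838 in OSKM-CMs and 2134 and 2653 in controls. The authors' deposited table gives Nppb a log2 fold change of 1.16 with an FDR of 3.48e-08.

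Within each library Nppb outweighed Nppa, by 15.7, 17.3 and 14.9 times in OSKM-CMs and by 26.3 and 23.6 times in controls, a ratio of RPKM that does not depend on the scaling between libraries. All 3 OSKM-CMs ratios were below both control ratios. On the log2 scale the ratio of Nppa to Nppb was -3.99 ± 0.11 (SD, n = 3) and -4.64 ± 0.11 (SD, n = 2), a difference of 0.65 with an exact permutation p of 0.1, two-sided. With 10 ways to split the 5 libraries, 0.1 is the smallest p this design can give, so no such ratio can pass the threshold. The p adjusted over the 3 ratios tested reached 0.2 at its highest.

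Markers of atrial cells were read beside these ligands because Nppa is an atrial gene in the adult heart. Of 10 atrial symbols, 6 were listed, and Sln, Bmp10, Nr2f1 and Nr2f2 were not. Of the 6, only Myl7, the atrial myosin light chain, passed, at 47.4, 68.2 and 53.2 scaled RPKM in OSKM-CMs and 13.8 and 4.45 in controls (log2 fold change 2.66, limma adjusted p = 0.00858). The value of Myl4 was 0.34 on the log2 scale (limma adjusted p = 0.545). The summed level of the 6 was 64.2, 85.3 and 65.1 in OSKM-CMs and 32.5 and 20.6 in controls. Most of this sum in OSKM-CMs was Myl7 alone. Of 5 ventricular markers, 4 fell and none rose, with a median log2 fold change of -0.83. The shares over all genes tested were 14.4% lower and 15.7% higher. Myl2 and Myl3 of the ventricular list are also in the cardiomyocyte list, so the 2 lists are not separate. The part of either marker list in the Nppa and Nppb levels was not tested.

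Nppa and Nppb lie side by side on chromosome 4, and the 250 bases before each start were read from RefSeq promoter windows (GRCm38.p6, a later build than the mm9 of the authors' notes). They are shown because both genes rose together and because binding motifs of cardiac factors are known in these promoters. All 7 members matched a window. Searches ran on both strands for the GATA motifs TGATAA and AGATAA (which share 5 letters), the T-box motif AGGTGT, the Nkx2-5 motif CAAGTG, the TEAD motif GGAATG, the serum response factor CArG box, and short motifs of the delivered factors: CCACCC for Klf4, CACGTG for Myc, ACAAAG for Sox2 and ATGCAAA for Oct4. Capitals mark matches, and in the first sequence ACACCT is AGGTGT read on the other strand. For Nppb, GENCODE M21 counts the 112 bases nearest the start as exonic, so the window is shown as the bases outside that exon and, apart from them, a stretch of 29 bases inside it that holds 3 matches.
Nppa, chr4:148000472-148000721, plus strand: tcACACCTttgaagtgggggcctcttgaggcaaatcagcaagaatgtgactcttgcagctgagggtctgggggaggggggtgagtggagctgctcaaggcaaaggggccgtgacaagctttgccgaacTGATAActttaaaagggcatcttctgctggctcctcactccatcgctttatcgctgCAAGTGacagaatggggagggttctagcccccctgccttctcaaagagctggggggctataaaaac
Nppb, chr4:147985650-147985787, plus strand: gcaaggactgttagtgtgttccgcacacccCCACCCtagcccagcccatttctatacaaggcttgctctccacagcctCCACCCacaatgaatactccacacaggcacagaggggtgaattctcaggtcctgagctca
Nppb, chr4:147985794-147985822, plus strand: aGGAATGcagcTGATAAatcagAGATAAc

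The Nppa window held 1 TGATAA 122 to 117 bases before the start and 1 CAAGTG 66 to 61 bases before it. The short Nppb stretch, 106 to 78 bases before the RefSeq start and exonic in GENCODE M21, held the TEAD motif and both GATA motifs within 29 bases. Nppb also had 3 matches to CCACCC, of which the 2 farther from the start are in the longer stretch shown. Neither window held an exact CArG box (CCWWWWWWGG, with W for A or T) or the motifs of Myc, Sox2 or Oct4. Variants of the CArG box were not searched, such as ctttaaaagg just after TGATAA in the Nppa window, which lacks the second C. Over all 32817 promoter windows of this length, 7.95% held TGATAA, 9.99% AGATAA, 11.8% AGGTGT, 11.6% CAAGTG, 12.6% GGAATG and 28.1% CCACCC, while 1.47% held the CArG box, 6.02% CACGTG, 16.5% ACAAAG and 4.13% ATGCAAA. A match is a run of letters, not a measured site.

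Neighbours of the ligand genes were called in both directions. Of 15 neighbouring symbols, 11 were listed and tested: 2 rose, 1 fell and 8 did not pass, with a median log2 fold change of -0.04. Among all genes tested 30.1% were called in either direction, so these counts do not set the neighbours apart. Plod1, a collagen lysyl hydroxylase, is separated from Nppb by 2510039O18Rik and was at 21.96, 28.8 and 26.4 scaled RPKM in OSKM-CMs and 12.3 and 13.6 in controls (log2 fold change 0.93, limma adjusted p = 0.00332). Agtrap, which encodes a protein that binds the type 1 angiotensin receptor, rose by 0.57 on the log2 scale (limma adjusted p = 0.0244), a call lost when OSKM-CMs replicate 1, OSKM-CMs replicate 3 or Control-CMs replicate 3 was left out. Mfn2, which encodes a mitochondrial fusion protein, fell by 0.61 on the log2 scale (limma adjusted p = 0.0049), which did not pass with library totals alone. Clcn6, a chloride transporter gene next to Nppa on the other side, had a log2 fold change of -0.24 and did not pass (limma adjusted p = 0.333). The plot of the neighbourhood gives genes up to Clcn6 in RefSeq order.

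**Figure D2:**
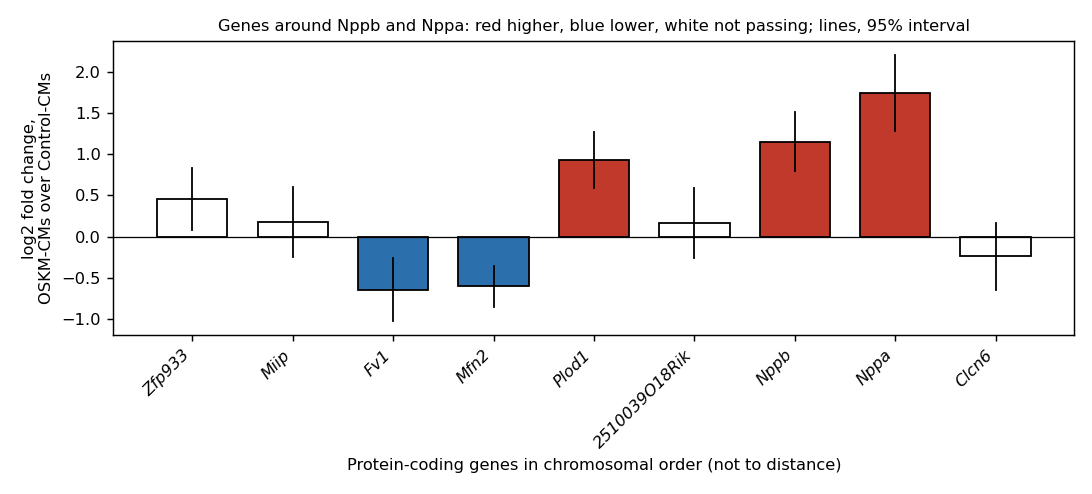
Log2 fold change, OSKM-CMs over Control-CMs (y), of protein-coding genes around Nppb and Nppa in chromosomal order (x, not to distance), with 95% intervals as lines, red and blue for genes called higher and lower by limma and white for genes that did not pass. Nppb (1.15) and Nppa (1.74) have the largest values of the genes drawn, between 2510039O18Rik (0.17) and Clcn6 (-0.24); Fv1 (-0.64, adjusted p 0.0233) was not in the list of neighbours and was added from its position.

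Of the processing enzymes, Corin fell. Corin (ENSMUSG00000005220.2) was at 34.2, 23.0 and 22.1 scaled RPKM in OSKM-CMs and at 62.0 and 63.1 in controls. OSKM-CMs replicate 1 was the highest of its group and still well below both controls. The means were 26.4 ± 6.74 (SD, n = 3) and 62.6 ± 0.740 (SD, n = 2), so the control level was 2.37 times the OSKM-CMs level, and the log2 fold change was -1.24 with a standard error of 0.19 and a 95% interval of -1.69 to -0.79 (limma adjusted p = 0.00309). Read counts were 527, 359 and 339 against 967 and 974. The authors' deposited table gives Corin a log2 fold change of -1.24 with an FDR of 2.61e-07. The summed cardiomyocyte markers were at 20858, 23858 and 21835 scaled RPKM in OSKM-CMs and at 32909 and 35744 in controls. The part of the marker level in the Corin level was not tested.

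The promoter window of Corin is shown because it was the only member to fall. Capitals mark GGGTGG, which is CCACCC read on the other strand, 131 to 126 and 52 to 47 bases before the start.
Corin, chr5:72504541-72504790, minus strand: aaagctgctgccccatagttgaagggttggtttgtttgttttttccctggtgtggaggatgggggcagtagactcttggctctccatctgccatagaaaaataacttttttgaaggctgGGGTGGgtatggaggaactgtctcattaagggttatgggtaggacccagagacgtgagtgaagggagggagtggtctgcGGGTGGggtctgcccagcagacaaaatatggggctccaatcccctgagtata
It held no match to the other 9 motifs. CCACCC is not particular to Corin: it also matched in Nppb (3 times), which rose. Among members that did not pass, it matched in Npr1 (3 times) and in each Furin window (1 time).

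Furin (ENSMUSG00000030530.9) stood at 6.10, 6.57 and 7.15 scaled RPKM in OSKM-CMs and 9.54 and 7.65 in controls. The ranges did not overlap, but Control-CMs replicate 5 lay closer to OSKM-CMs replicate 3 than to the other control. The means were 6.61 ± 0.529 (SD, n = 3) and 8.59 ± 1.34 (SD, n = 2), with a log2 fold change of -0.33 and a 95% interval of -0.69 to 0.03 that holds 0 (limma adjusted p = 0.146). With library totals alone in place of TMM the value was 0.04, so its direction depends on the scaling. The authors' deposited table gives Furin a log2 fold change of -0.38 with an FDR of 0.0958.

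Corin transcripts outnumbered Furin transcripts per length by 5.61, 3.49 and 3.09 times in OSKM-CMs and by 6.50 and 8.25 times in controls. The OSKM-CMs values were all below the controls. On the log2 scale the difference was -0.90, with an exact permutation p of 0.2, two-sided. The ratio of Nppa to Corin, the transcripts of the ANP precursor and of its protease, was 1.56, 2.28 and 3.45 in OSKM-CMs and 0.240 and 0.310 in controls. In controls Corin was thus the more abundant transcript of the pair, and in every OSKM-CMs library it was Nppa. This ratio was not tested.

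The 3 receptors did not move together: Npr3 rose, and Npr1 and Npr2 did not pass. Npr3 (ENSMUSG00000022206.5), the clearance receptor, was at 7.32, 6.59 and 7.58 scaled RPKM in OSKM-CMs and at 1.64 and 1.89 in controls. The libraries of each group lay close together and far from the other group. The means were 7.16 ± 0.516 (SD, n = 3) and 1.76 ± 0.174 (SD, n = 2), a 4.06-fold difference, the largest ratio among the 7 genes. The log2 fold change was 1.56 with a standard error of 0.15 and a 95% interval of 1.20 to 1.92 (limma adjusted p = 0.000509). At so low a level the added 1 shrinks the log2 value: it was 2.01 in the authors' deposited table, where the FDR was 9.20e-15. Read counts were 159, 145 and 164 against 36 and 41. The promoter window of Npr3 held none of the 10 motifs.

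Npr2 (ENSMUSG00000028469.8), the receptor of C-type natriuretic peptide, was at 6.36, 5.65 and 6.31 scaled RPKM in OSKM-CMs and at 7.95 and 8.31 in controls. Both controls were above all 3 OSKM-CMs libraries, by a small margin. The means were 6.11 ± 0.395 (SD, n = 3) and 8.13 ± 0.251 (SD, n = 2). The log2 fold change of -0.36 had a 95% interval of -0.68 to -0.04 and did not pass after adjustment over all genes (limma adjusted p = 0.0855). With library totals alone the value was 0.01, so the direction depends on the scaling here too. The authors' deposited table gives Npr2 a log2 fold change of -0.42 with an FDR of 0.1002.

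Npr1 (ENSMUSG00000027931.6), the receptor of ANP and BNP, was the lowest of the 7 genes in every library but Control-CMs replicate 5, at 1.77, 0.741 and 0.548 scaled RPKM in OSKM-CMs and 1.42 and 2.25 in controls. It was the only member whose groups overlapped, since OSKM-CMs replicate 1 lay between the 2 controls. The log2 fold change was -0.52 with a 95% interval of -1.20 to 0.16 (limma adjusted p = 0.220), an interval that holds both a clear fall and no change. Counting error alone was wide: the 26, 11 and 8 reads of OSKM-CMs have exact 95% Poisson intervals of 17.0 to 38.1, 5.49 to 19.7 and 3.45 to 15.8 and the 33 reads of Control-CMs replicate 5 have one of 22.7 to 46.3, while Control-CMs replicate 3 had 21 reads. Such intervals cover counting error only. The authors' deposited table gives Npr1 a log2 fold change of -0.77 with an FDR of 0.163.

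Within the receptors the balance moved to Npr3. Npr3 made up 47.4, 50.7 and 52.5% of the summed receptor RPKM in OSKM-CMs and 14.9 and 15.2% in controls, while Npr2 made up 41.2, 43.6 and 43.7% against 72.2 and 66.8%. Npr3 was at 1.15 to 1.20 times the RPKM of Npr2 in OSKM-CMs and at 0.206 and 0.227 times in controls. Which of the pair is higher in OSKM-CMs depends on the gene length: with the exonic lengths of GENCODE M21, where Npr3 has 9389 bases against the 7058 implied by the RPKM, Npr3 was at 0.869 to 0.906 times Npr2 in OSKM-CMs and at 0.156 and 0.171 times in controls. The difference between the groups was of like size with either length, and these lengths were tried after the values had been seen. The mean Npr3 share was 50.2 ± 2.60% (SD, n = 3) and 15.0 ± 0.183% (SD, n = 2), a difference of 35.2 percentage points (exact permutation p = 0.1, two-sided, the smallest this design allows). The summed level of the 3 receptors was 15.5, 12.98 and 14.4 scaled RPKM in OSKM-CMs and 11.0 and 12.4 in controls, so the shares moved more than the sum did.

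**Figure D3:**
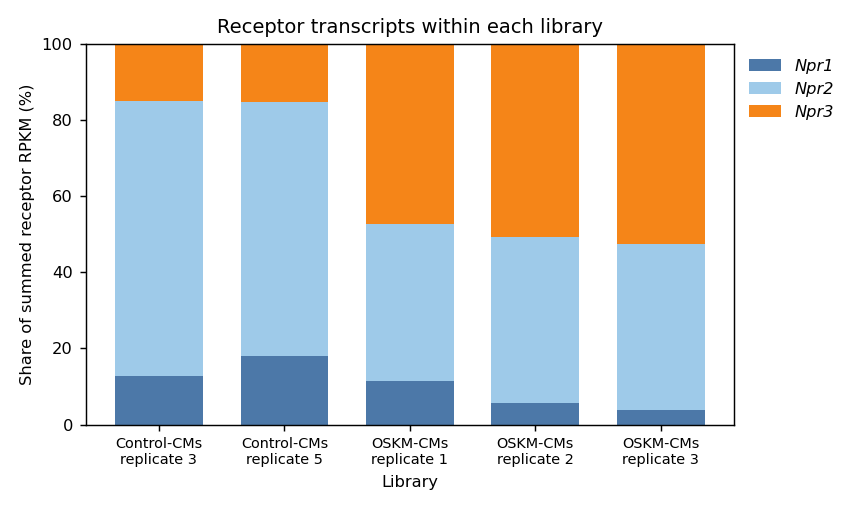
Share (y, percent) of the summed RPKM of the 3 receptors taken by Npr1, Npr2 and Npr3 in each library (x), stacked to 100%. Npr3 takes 47.4 to 52.5% in the 3 OSKM-CMs libraries and 14.9 and 15.2% in the 2 controls.

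Receptors of this family are also made by cells other than cardiomyocytes, and markers of those cells were read beside them. The counts below stand against 15.7% called higher and 14.4% called lower among all genes tested. Endothelial markers, of which 2 of 12 fell and none rose, summed to 105, 51.5 and 74.4 scaled RPKM in OSKM-CMs and to 145 and 136 in controls. Within OSKM-CMs their sum was highest in replicate 1. Endocardial markers summed to 16.9, 7.94 and 12.6 against 13.9 and 11.4, and none of the 6 tested passed. Fibroblast markers, of which 4 of 10 rose and 1 fell, summed to 266, 128 and 252 against 162 and 78.7. Mural markers, of which 3 of 10 rose and 1 fell, summed to 752 to 835 against 735 and 766. That list includes Des, which is not particular to mural cells, so its sum is not a level of those cells alone. None of the 7 macrophage markers tested passed, and their sum was 26.3, 9.86 and 46.3 against 59.0 and 15.1, with Ptprc at 0 reads in OSKM-CMs replicate 2. The part of these cells in the receptor levels was not tested.

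**Figure D4:**
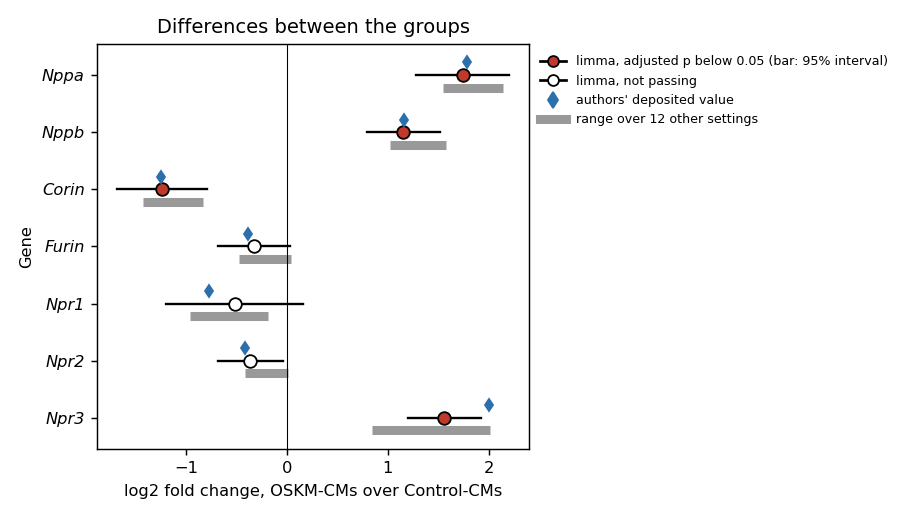
Log2 fold change, OSKM-CMs over Control-CMs (x), of the 7 genes (y): circles give the limma value with its 95% interval, filled where the adjusted p passed, diamonds the authors' deposited value, and grey bars the range over 12 other settings. The grey bars of Nppa (1.55 to 2.15), Nppb (1.03 to 1.57), Npr3 (0.85 to 2.01) and Corin (-1.43 to -0.83) keep to their side of 0, and those of Furin (-0.48 to 0.04) and Npr2 (-0.41 to 0.01) reach it.

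Genes that act with the system were counted from lists of its other ligands, convertases and peptidases, of cGMP signalling and of secretory granules. In the first list 7 of 11 symbols were in the table and 5 were tested, and none passed. Nppc, the gene of C-type natriuretic peptide, was not among the listed genes. Mme, which encodes neprilysin, a peptidase that degrades natriuretic peptides, was at 0.597, 1.55 and 0.599 scaled RPKM in OSKM-CMs and at 1.55 and 4.17 in controls (log2 fold change -0.96, limma adjusted p = 0.0794). OSKM-CMs replicate 2 and Control-CMs replicate 3 were nearly level. The log2 fold change of Mme was -1.49 without Control-CMs replicate 3 and -0.46 without Control-CMs replicate 5. It passed with limma voom on recovered reads (limma voom adjusted p = 0.0469). Its mean was 0.914 in OSKM-CMs and 2.86 in controls, so it passed the filter on low values only through the controls.

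Of the cGMP list, 14 of 27 symbols were tested: 3 rose, 3 fell and 8 did not pass, with a median log2 fold change of 0.17. Over all genes tested the shares called were 15.7% higher and 14.4% lower. Gucy1b3, the beta subunit of the guanylyl cyclase that responds to nitric oxide, was at 10.3, 11.9 and 13.8 scaled RPKM in OSKM-CMs and at 3.77 and 2.21 in controls (log2 fold change 1.72, limma adjusted p = 0.00115). Its usual partner subunit Gucy1a3 had a log2 fold change of 0.28 and did not pass (limma adjusted p = 0.370). Ppp1r12a, the targeting subunit of myosin phosphatase, rose by 0.77 and Pde1c, a calcium-dependent phosphodiesterase, by 0.84 on the log2 scale (limma adjusted p = 0.00275 and 0.00745).

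Rgs2, a regulator of G protein signalling that the cGMP-dependent kinase activates, was at 2.60, 3.36 and 2.52 scaled RPKM in OSKM-CMs and at 9.76 and 13.2 in controls. Every OSKM-CMs library was below both controls (log2 fold change -1.70, limma adjusted p = 0.000754). The phosphodiesterase genes Pde3a and Pde2a had log2 fold changes of -0.67 and -0.43 (limma adjusted p = 0.0157 and 0.0431), but their calls were lost in 4 and 7 of 12 other settings. Prkg1, the cGMP-dependent kinase itself, was at 5.77, 7.50 and 5.51 against 4.18 and 4.64 and did not pass (log2 fold change 0.42, limma adjusted p = 0.106), though it did with library totals alone. Pde5a, which encodes the phosphodiesterase blocked by sildenafil, had a mean under the filter, with levels of 0.110 to 0.517 scaled RPKM, and Pde9a was not among the listed genes.

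Of the secretory granule list, 10 of 20 symbols were in the table and 8 were tested. Of these, 2 rose, 1 fell and 5 did not pass, with a median log2 fold change of 0.12. The share called in either direction among all genes tested was 30.1%. Rab27b, a small GTPase of granule docking, was at 1.64, 1.53 and 2.84 scaled RPKM in OSKM-CMs and at 0.331 and 0.426 in controls (log2 fold change 1.10, limma adjusted p = 0.0124), and without Control-CMs replicate 3 the adjusted p was 0.0511. It passed the filter on low values only through the OSKM-CMs libraries, and without OSKM-CMs replicate 3 it was under the filter and not tested. Cpe, a carboxypeptidase that trims peptide hormones, rose by 0.44 on the log2 scale (limma adjusted p = 0.0186), lost in 3 of 12 settings. Pam, the amidating enzyme that is a major membrane protein of atrial granules, had one of -0.42 (limma adjusted p = 0.0313), lost in 5. Chromogranin and secretogranin genes (Chga, Chgb, Scg2, Scg3, Scg5) were not among the listed genes.

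Of 32 factors tested that are known to act on Nppa or Nppb transcription, 3 rose, 8 fell and 21 did not pass. Among all genes tested 15.7% were called higher and 14.4% lower. The median log2 fold change of the factors was -0.33, against 0.02 for all genes tested. Ankrd1, a cardiac stress protein that acts as a cofactor in the nucleus, was at 1805, 1396 and 2809 scaled RPKM in OSKM-CMs and at 552 and 417 in controls (log2 fold change 2.00, limma adjusted p = 0.00433). Like Nppa and Nppb, it was highest in OSKM-CMs replicate 3. Tbx20, a T-box factor of the heart, was at 52.4, 43.1 and 52.0 against 23.7 and 23.1 (log2 fold change 1.03, limma adjusted p = 0.00137). Mef2c rose by 0.50 on the log2 scale (limma adjusted p = 0.0292), which was lost in 4 of 12 settings.

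Among the lower factors, Hopx, a homeodomain protein that counters serum response factor, was at 24.96, 25.2 and 18.7 scaled RPKM in OSKM-CMs and at 61.8 and 67.7 in controls (log2 fold change -1.47, limma adjusted p = 0.000696). Klf15, a repressor of cardiac growth genes, was at 8.11, 8.51 and 5.95 against 17.6 and 20.3 (log2 fold change -1.24, limma adjusted p = 0.00214). The immediate early genes Egr1 and Fos had log2 fold changes of -1.55 and -1.22 (limma adjusted p = 0.00712 and 0.0114), and Fos no longer passed without Control-CMs replicate 5. In all 4 genes each OSKM-CMs library lay below both controls.

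Gata4, Nkx2-5, Tbx5 and Rest were named whatever their result, and of these Tbx5 passed. Gata4 was at 26.2, 26.2 and 27.7 scaled RPKM in OSKM-CMs and at 26.1 and 28.4 in controls (log2 fold change -0.02, limma adjusted p = 0.891). Nkx2-5 was at 42.5, 39.6 and 36.8 against 30.4 and 32.0 and missed the threshold (log2 fold change 0.33, limma adjusted p = 0.0686), which it passed with library totals alone. Tbx5 fell by 0.71 on the log2 scale (limma adjusted p = 0.0353), lost in 5 of 12 settings. Rest, the repressor that silences both ligand genes in the adult ventricle, was at 3.63, 3.76 and 4.14 against 3.50 and 4.97 (log2 fold change -0.10, limma adjusted p = 0.704). With library totals alone the Gata4 value was 0.38 and passed (limma adjusted p = 0.037), and the Rest value was 0.24, so neither has a direction that holds under both scalings.

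**Figure D5:**
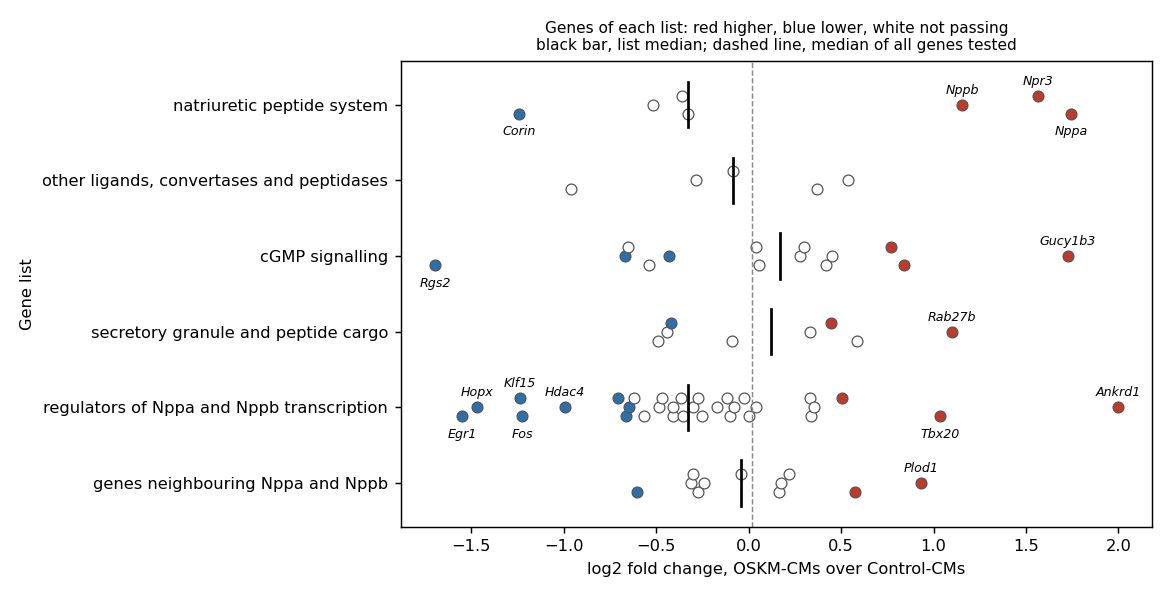
Log2 fold change, OSKM-CMs over Control-CMs (x), of each gene tested in 6 lists (y), red for higher and blue for lower by limma, white for not passing, with a bar at each list's median and a dashed line at the median of all genes tested (0.02). The regulator list has its median at -0.33 while Ankrd1 (2.00) lies farthest to the right, and the cGMP list spans Rgs2 (-1.70) to Gucy1b3 (1.72).

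Genes whose levels over the 5 libraries were most like each member were found by Euclidean distance between mean-centred log2 profiles, where 0 is an identical profile. For Nppa the nearest were Sbno2 (0.183), Eif1a (0.203) and Rab31 (0.225), and for Nppb they were Atp6v1h (0.176), Bpnt1 (0.177) and Hrsp12 (0.182). Neither ligand was among the 3 nearest of the other, and no member was among those of any other. Corin was nearest to Slc25a42 (0.198), Txlnb (0.232) and 2010002N04Rik (0.234). Npr3 was nearest to Ppia (0.122), Taf1d (0.161) and Smg1 (0.162).

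The distances were smaller for Npr2 and Furin. Npr2 lay 0.0379 from Psmc3, 0.0513 from Ufc1 and 0.0621 from Pdxdc1, and Furin lay 0.0747 from Pgp, 0.0833 from Actr6 and 0.0873 from Emd. Npr1 was nearest to Gm11560 (0.197), Igfbp5 (0.248) and Got2-ps1 (0.258). With 5 libraries such distances describe these samples only.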

How the data were processed

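Cardiomyocyte RNA of 3 OSKM-CMs and 2 Control-CMs libraries was sequenced. The submitters' processing notes name STAR 2.5.3, HTSeq, CASAVA 1.8.2, Trimmomatic, FastQC and build mm9. Annotation and strand setting are not given in the sources used here. The deposited library values are RPKM, a unit read off the values, as the header is silent on it. Beside these the authors deposited, per gene, a log2 fold change, a mean log2 abundance, a likelihood-ratio score and a p-value with FDR. Every listed gene had at least 1 CPM in 2 libraries. Whole reads were recovered from the RPKM: all 12446 genes (100%) came out whole within 0.0001 reads. TMM factors were computed from them, trimming 30% of log ratios and 5% of abundances. Genes with a mean scaled RPKM of at least 1 were kept, and limma 3.58.1 in R 4.3.3 fitted log2 of scaled RPKM plus 1 (trend, robust, two-sided, 3 residual degrees of freedom). Limma voom on the recovered reads took all 12446 genes, without the filter on low values, and called 1896 higher and 1887 lower. The main fit called 1715 and 1565 of the 10901 genes it tested, so these counts come from unlike sets. In the main fit 4600 genes had an unadjusted p below 0.05. Ratios were taken within a library and tested by exact permutation over libraries with Python 3.11.15 and scipy 1.17.1. Members and gene lists were chosen with earlier results of these data known. Named are all 7 members, up to 4 passing genes of each list in each direction and a set of fixed pathway genes; 2 genes of the lists are not reported here. Promoter windows are from RefSeq, GRCm38.p6. Alternatives were the pseudocount (0.1 and 5), no filter, library totals alone and median-ratio size factors. The others were voom without the filter, limma without trend and robust, and each library left out.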

Additional observations from a re-analysis of the deposited data

How the results depend on the processing

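The calls of Nppa, Nppb and Npr3 as higher and of Corin as lower held in all 12 alternatives, with limma adjusted p from 1.17e-05 (Npr3) to 0.0196 (Corin), and Furin, Npr1 and Npr2 passed in none. Their log2 ranges were -0.96 to -0.19 for Npr1, -0.48 to 0.04 for Furin and -0.41 to 0.01 for Npr2. Library totals alone in place of TMM moved the median of all genes tested to 0.36 and the calls to 3985 higher and 650 lower, and gave 0.0394 for Furin, 0.00546 for Npr2, 0.38 for Gata4, 0.24 for Rest and 0.0511 for Clcn6. Over the fits without 1 library, Gata4 ran from -0.0845 to 0.0348 and Rest from -0.30 to 0.10, above 0 without Control-CMs replicate 5 alone. The cause was not tested. Leaving out each library gave 1143 to 1534 genes higher and 964 to 1509 lower (fewest without OSKM-CMs replicate 3 and without Control-CMs replicate 5), 0.57 to 0.73 for the log2 ratio of Nppa to Nppb, 34.0 to 36.6 points for the Npr3 share and -1.16 to -0.73 for the log2 ratio of Corin to Furin. With summed reads in place of RPKM, which weights long genes, the Npr3 share differed by 39.3 points, and with GENCODE M21 lengths, added after seeing the data, by 31.4 points. With 1 control left out, the other was assumed to vary like the OSKM-CMs libraries. Depth limits Npr1 most. No paired analysis was possible because replicate number 3 alone occurs in both groups.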
